A study of Mus musculus with 46 samples.

Results

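The messenger RNAs described here encode the proteins of the cytosolic ribosome, together with the transcribed copies of those genes. Members are autosomal genes whose mouse symbol begins with Rpl or Rps followed by a number or the letter a, without the Rps6k kinases, and whose summed count averaged 20 or more at any age. Of 15499 genes with counts, 59 have such a symbol, and 47 are members: 44 cytosolic ribosomal protein genes (24 of the large and 20 of the small subunit), 2 pseudogenes (Rpl36-ps12 and Rps19-ps3) and Rps19bp1, which encodes a protein that binds Rps19 and is no ribosomal protein. The other matching symbols are 3 on the X chromosome and 9 under the count limit. Just inside the limit lie Rpl26, with a highest mean count of 24.7 and Rps27a with 26.6. Just outside it lie Rps10 with 19.6, Rpl18 with 18.4 and Rplp2 with 15.2. The limit was reached by 42 members at P5, 45 at P15 and 47 in adults. Rpl26 reached it in adults alone, and Rpl17, Rps27a and Rpl36-ps12 reached it at P15 and in adults but not at P5. The rise of these 4 from the ages under the limit is in part set by the choice of members and is given with no p-value, and the counts of rising members include them.

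The samples are dorsal raphe nucleus, the midbrain nucleus that holds much of the brain's serotonin neurons, from 46 female F1 hybrid mice of the strains C57 and CAST. There were 14 animals at postnatal day 5 (P5), 14 at day 15 (P15) and 18 adults, split evenly between the crosses named F1i and F1r. The labels used here do not give the adults' age in days or say which strain was the mother in each cross, and they name no treatment. Adult labels carry 2 numbers, so several adults of a cross share the first one, and it is not stated what either number stands for. Nothing says that libraries came from separate litters, so p-values measure the spread between these libraries. In every animal reads were counted for the C57 and the CAST allele of each gene, and the totals of both alleles ran from 3692778 to 13085952. Each age was deposited as a table of its own, so age and any difference in handling by age cannot be told apart.

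As background, a cytosolic ribosome joins a small subunit, which reads the message, to a large subunit, which forms the peptide bond. Its proteins are made in matched amounts, and their messages share a tract of pyrimidines at the 5′ end through which the mTOR pathway governs their translation. Ribosomal protein messages have been copied back into the mouse genome many times as intronless processed pseudogenes. A short read from such a gene can therefore match its copies as well. The reference annotation lists 393 symbols that match the rule, and 300 of these carry the -ps of a pseudogene.

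How alike a gene and its copies are decides what a 50-base read can tell. Every run of 50 bases in each coding sequence was looked up in the transcripts of all other genes of the GENCODE M21 annotation (build GRCm38, later than the mm9 build of the counts). In 17 of the 44 cytosolic genes every such run occurred in another gene, and the median gene shared 87.5% of its runs. Rpl7a, whose protein lies in the large subunit, shared runs with 123 other genes. Rps3, a small subunit protein at the entry channel of the message, shared 8.09% of its runs, with 1 other gene. The first 50 coding bases of 3 genes are shown as examples of stretches with and without matches in other genes, with the start codon in capitals. Those of Rps3 occur in 0 other genes, those of Rps12 in 9 and those of Rpl23a in 7.
Rps3: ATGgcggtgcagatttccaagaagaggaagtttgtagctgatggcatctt
Rps12: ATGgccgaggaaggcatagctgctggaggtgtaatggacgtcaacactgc
Rpl23a: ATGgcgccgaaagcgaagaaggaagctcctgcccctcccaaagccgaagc
The pseudogenes among the members differ from their parent genes at few bases, as the next stretches show, with the differing bases in capitals. Rps19 (chr7:24884371-24889806, plus strand, GRCm38) and Rps19-ps3 (chr4:147821777-147822202, minus strand) align over 407 bases and differ at 14 of them, an identity of 96.6%. Bases 354 to 403 of the Rps19 coding sequence, chosen for holding many differences, hold 5.
Rps19: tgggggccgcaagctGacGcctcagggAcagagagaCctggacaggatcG
Rps19-ps3: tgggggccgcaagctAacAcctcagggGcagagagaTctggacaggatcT
Rpl36 (chr17:56613416-56614243, plus strand) and Rpl36-ps12 (chr6:108140120-108140509, minus strand) align over 315 bases and differ at 3, and the first 50 coding bases hold 1 of these. Rpl36 itself is not among the genes of the tables.
Rpl36: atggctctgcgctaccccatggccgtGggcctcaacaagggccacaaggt
Rpl36-ps12: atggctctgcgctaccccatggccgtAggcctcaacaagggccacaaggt

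The count per kilobase of transcript, by the median length of a gene's annotated transcripts, differed with this sharing. The 12 cytosolic genes with under 50% of their runs shared had a median of 1654 counts per kilobase (mean count at the gene's highest age), against 183.6 in the 21 genes with 90% or more shared. How the authors treated reads that match several places is not given in the sources used here, so the values of genes with shared runs are uncertain. For 8 cytosolic genes a gene that shares runs is itself in the tables. These pairs are Rps12 with Rps12-ps1, Rps19 with Rps19-ps3, Rps24 with Gm6030, Rpl13a with Gm45713, Rpl21 with BC004004, Rpl23a with Tlcd1, Rpl35a with Tctn1, and Rpl7a with Ciapin1 and Dennd1b.

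From P5 to P15 more cytosolic ribosomal protein genes rose than fell, and from P15 to adult more fell than rose. Levels are CPM, the summed count of both alleles per 1000000 counts of the library after TMM scaling. Tests are edgeR's quasi-likelihood test with Benjamini-Hochberg adjustment over 13637 genes, called at an adjusted p under 0.05. From P5 to P15, 25 of the 44 rose and 10 fell, 79.5% in all, where 83.4% of all genes were called (42.5% higher, 40.9% lower). The median change of the 44 was 0.23 on the log2 scale, against 0.02 over all genes tested. From P15 to adult 12 rose and 24 fell, with 74.7% of all genes called (37% higher, 37.7% lower) and medians of -0.24 and -0.01. From P5 to adult 20 rose and 15 fell, with 82.1% of all genes called (40.6% higher, 41.5% lower) and a median of 0.11. The called share of the members was thus near that of all genes, and their directions were not tested against those of all genes. An offset for GC content and length, which left the median over all genes within 0.03 of 0, changed the split to 19 up and 12 down from P5 to P15 and to 17 up and 18 down from P5 to adult. With that offset 13 rose and 25 fell from P15 to adult.

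Both subunits held genes of both directions. Among 24 large subunit genes 12 rose and 6 fell from P5 to P15, and 8 rose and 14 fell from P15 to adult. Among 20 small subunit genes 13 rose and 4 fell in the first step, and 4 rose and 10 fell in the second. Both pseudogenes rose and then fell. The summed CPM of the 44 genes had a median of 2220 at P5 (2138 to 2275), 2718 at P15 (2248 to 3116) and 2832 in adults (2407 to 3208).

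Taken over both steps, 14 of the 44 cytosolic genes (31.8%) rose and then fell, where 21.9% of all genes tested did so. Another 8 (18.2%, against 10.2% of all genes) rose in both steps: Rpl8, Rps3, Rpl4, Rpl27a, Rpl23a, Rpl26, Rps15 and Rpl13a, of which Rpl26 is a member through its adult count alone. Only Rpl13, Rpl9 and Rps12 fell and then rose (6.82%, against 21.9%). Rpl5, Rpl10a, Rpl12, Rpl21 and Rps18 fell in both steps (11.4%, against 9.4%). For 3 genes (Rps25, Rps2 and Rpl11) neither step was called.

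**Figure D1:**
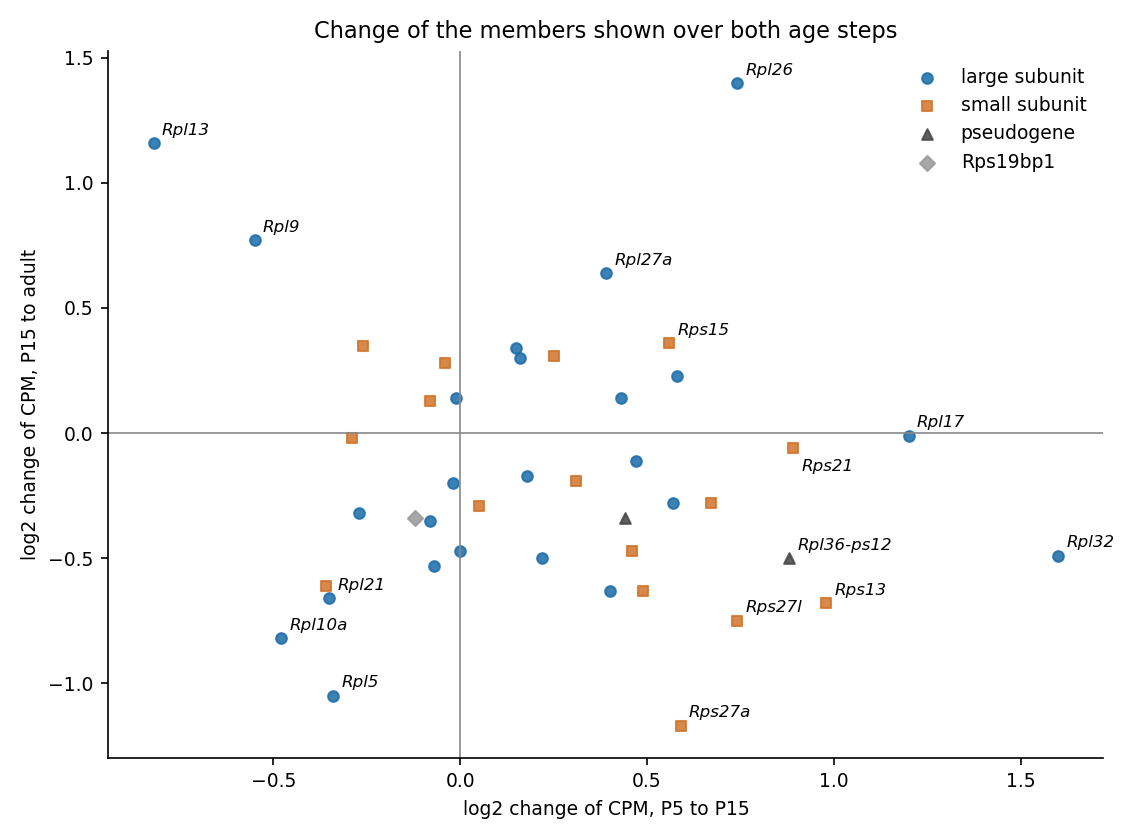
Each point is a member, by its log2 change from P5 to P15 (horizontal axis) and from P15 to adult (vertical axis). Rpl32 stands farthest to the right of the members plotted at 1.60, Rps27a and Rps27l lie at the lower right, and the called genes Rpl13 and Rpl9 lie at the upper left.

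The changes also split by how much of the gene's sequence was shared. Of the 12 cytosolic genes with under 50% of runs shared, 11 rose from P5 to P15 and 0 fell, with a median of 0.61 on the log2 scale. Of the 21 with 90% or more shared, 8 rose and 8 fell, with a median of -0.07. In the later step 4 rose and 7 fell in the first set, and 6 rose and 11 fell in the second. Of all genes tested, 42.5% rose and 40.9% fell in the first step, and 37% rose and 37.7% fell in the later one. By mean count at the gene's highest age, the median was 1060 in the first set and 143.1 in the second. The part of count level in these calls and the difference between the sets were not tested.

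Rps21 and Rps13, both of the small subunit, rose from P5 to P15. Rps21 (ENSMUSG00000039001, chr2:180257377-180258445, plus strand, GRCm38) had 155 to 180 CPM at P5 (median 164), 206 to 416 at P15 (median 294) and 185 to 387 in adults (median 302), with no overlap between P5 and the later ages. Its rise was 0.89 ± 0.10 on the log2 scale (adjusted p = 4.33e-11), and no change was called from P15 to adult. Rps13, a small subunit protein with every run shared, rose by 0.98 ± 0.12 on the log2 scale from medians of 3.61 to 6.61 CPM.

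Of the large subunit, Rpl32 rose most from P5 to P15. Its CPM was 44.0 to 59.5 at P5 (median 53.3), 91.7 to 263 at P15 (median 153) and 90.04 to 153 in adults (median 110). All later libraries exceeded all P5 ones, and the P15 libraries spread the widest. The rise was 1.60 ± 0.11 on the log2 scale (adjusted p = 2.86e-18). Rpl17, under the count limit at P5, went from a median of 1.59 to 3.62 CPM (1.20 ± 0.14 on the log2 scale) and had 3.79 in adults, at few counts. Rpl26, whose protein lies at the tunnel exit of the large subunit, had 0.174 to 1.08 CPM at P5 (median 0.562), 0.487 to 1.94 at P15 (median 0.804) and 1.41 to 2.99 in adults (median 2.63). Its difference from P15 to adult was 1.40 ± 0.16 on the log2 scale, and 48 counts over 14 libraries stand behind the P5 level. Rpl27a rose in both steps, from a median of 27.5 to 36.0 and then 56.7 CPM, and no adult library overlapped either younger age (1.03 ± 0.05 on the log2 scale from P5 to adult, adjusted p = 3.53e-23).

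**Figure D2:**
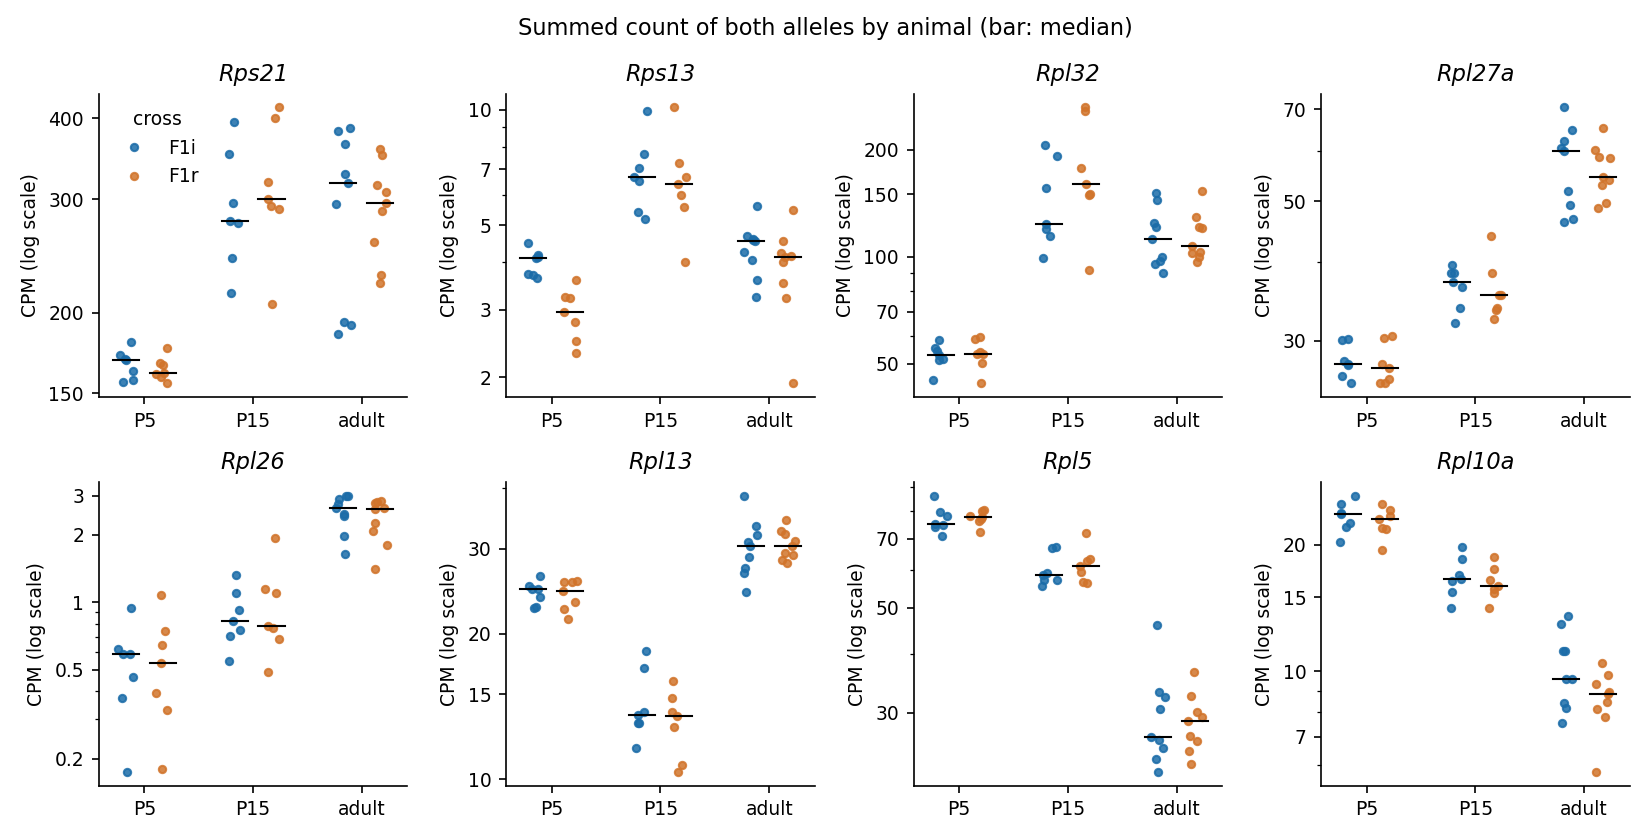
CPM of both alleles summed (vertical axis, log scale) in each animal at P5, P15 and adult for 8 members, with the cross by colour and the median of each cross as a bar. Rps21, Rpl32 and Rpl27a are lowest at P5, Rpl13 is lowest at P15, and Rpl5 and Rpl10a are lowest in adults.

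Falling genes belonged to both subunits. Rpl5, which carries the 5S RNA into the large subunit and with Rpl11 can bind Mdm2, had 70.9 to 86.2 CPM at P5 (median 77.4), 55.7 to 72.1 at P15 (median 59.4) and 22.5 to 45.97 in adults (median 27.9). No adult library reached the P15 range, and P5 and P15 overlapped only at their edges. The fall was -1.05 ± 0.06 on the log2 scale from P15 to adult (adjusted p = 4.62e-20) and -1.39 ± 0.06 from P5 to adult. Its partner Rpl11 was called in neither step, with medians of 6.54, 6.66 and 7.38 CPM. Rpl10a, a protein of the large subunit's L1 stalk, had 19.4 to 26.1 CPM at P5 (median 23.2), 14.1 to 19.7 at P15 (median 16.4) and 5.77 to 13.5 in adults (median 9.15). Adults did not overlap P15, and P15 met P5 only at the edge. Its change from P5 to adult was -1.30 ± 0.07 on the log2 scale (adjusted p = 1.35e-23).

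Rpl21 fell from a median of 36.1 to 28.3 and then 17.8 CPM (-1.01 ± 0.05 on the log2 scale from P5 to adult), and Rps18 from 7.85 to 5.66 and 3.74 (-0.97 ± 0.10). The fused gene Rps27a, which encodes ubiquitin joined to a small subunit protein, had a median of 4.60 CPM at P15 and fell to 2.03 in adults (-1.17 ± 0.13 on the log2 scale from P15, adjusted p = 1.58e-11). Rpl12 and Rpl7a fell by 0.59 and 0.60 on the log2 scale from P5 to adult. With only the adults whose label has 2 as its second number, the fall of Rpl7a was -0.21 and was not called (adjusted p = 0.171).

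Rpl13 and Rpl9 dipped at P15. Rpl13, a large subunit protein, had 21.5 to 26.4 CPM at P5 (median 24.7), 10.4 to 18.4 at P15 (median 13.5) and 24.4 to 38.6 in adults (median 30.4). All P15 libraries lay under all others. The steps were -0.82 ± 0.07 and 1.16 ± 0.06 on the log2 scale (adjusted p = 8.3e-16 and 4.84e-22). Rpl9, also of the large subunit, had medians of 19.7, 13.5 and 21.2 CPM with some overlap of P5 and P15, and steps of -0.55 ± 0.10 and 0.77 ± 0.09. Rps12, a small subunit protein, rose by 0.35 ± 0.06 from P15 to adult, from a median of 94.3 to 119 CPM. Rps15, which sits in the head of the small subunit, rose by 0.36 ± 0.05 in the same step.

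Paralogs here are members with an l added to the symbol of a ribosomal protein gene, and they were counted as cytosolic genes by symbol alone. Rps27l, a variant of Rps27, had 22.2 to 33.5 CPM at P5 (median 29.6), 39.3 to 57.5 at P15 (median 48.9) and 22.5 to 35.4 in adults (median 28.3). The P15 libraries lay above all others, with steps of 0.74 ± 0.06 and -0.75 ± 0.06 on the log2 scale, and the change from P5 to adult was -0.01 ± 0.06 (adjusted p = 0.935). With the GC and length offset that last change was -0.28 (adjusted p = 4.63e-05). Rpl7l1 rose by 0.47 ± 0.04 and then fell by 0.11 ± 0.03 on the log2 scale, from a median of 75.3 to 107 and then 96.4 CPM. Its fall lost the call in 5 of its alternatives.

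The pseudogenes had few counts. Rpl36-ps12 had 1.54 to 4.53 CPM at P5 (median 2.63), 3.002 to 6.61 at P15 (median 5.76) and 1.92 to 5.64 in adults (median 3.45), and all ages overlapped. Its difference from P5 to P15 was 0.88 ± 0.16 on the log2 scale, and its later fall -0.50 ± 0.14 (adjusted p = 0.00124). Rps19-ps3 had medians of 3.3, 4.68 and 3.60 CPM, with steps of 0.44 ± 0.12 and -0.34 ± 0.11. Rps19 itself, the gene mutated in many patients with Diamond-Blackfan anaemia, had medians of 61.5, 70.6 and 65.0 CPM and rose by 0.31 ± 0.09 in the first step (adjusted p = 0.00246). Its second step, -0.19 ± 0.09, missed the threshold (adjusted p = 0.0503), but was called in F1r libraries alone (-0.34, adjusted p = 0.0114), with the GC and length offset (-0.25, adjusted p = 0.0019), with scaling to the library total (-0.24, adjusted p = 0.0129) and with no count filter (-0.19, adjusted p = 0.0493). In F1i libraries alone the first step was not called in Rps19 (0.25, adjusted p = 0.0784) or in Rps19-ps3 (0.36, adjusted p = 0.054), and neither were the falls of both pseudogenes.

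Rpl32 at P15 and Rps21 in adults differed more between libraries than most genes with a mean count of 20 or more. The SD of the log2 CPM of Rpl32 was 0.46 over P15 libraries, at the 97.6th percentile, where the median gene had 0.19. For Rps21 it was 0.36 over adults, at the 96.1st percentile, where the median gene had 0.17. At P5 they stood at the 62.9th and the 19.1st percentile. Some of this spread went with the adult labels, a pattern seen in the data and not sought by plan. Rps21 had 185 to 257 CPM in the 6 libraries whose label has 1 as its second number, against 287 to 383 and 295 to 387 in those of numbers 2 and 3, with no overlap. Rpl32 had 121 to 153 CPM with number 2, against 90.04 to 130 and 95.1 to 124 with 1 and 3.

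**Figure D3:**
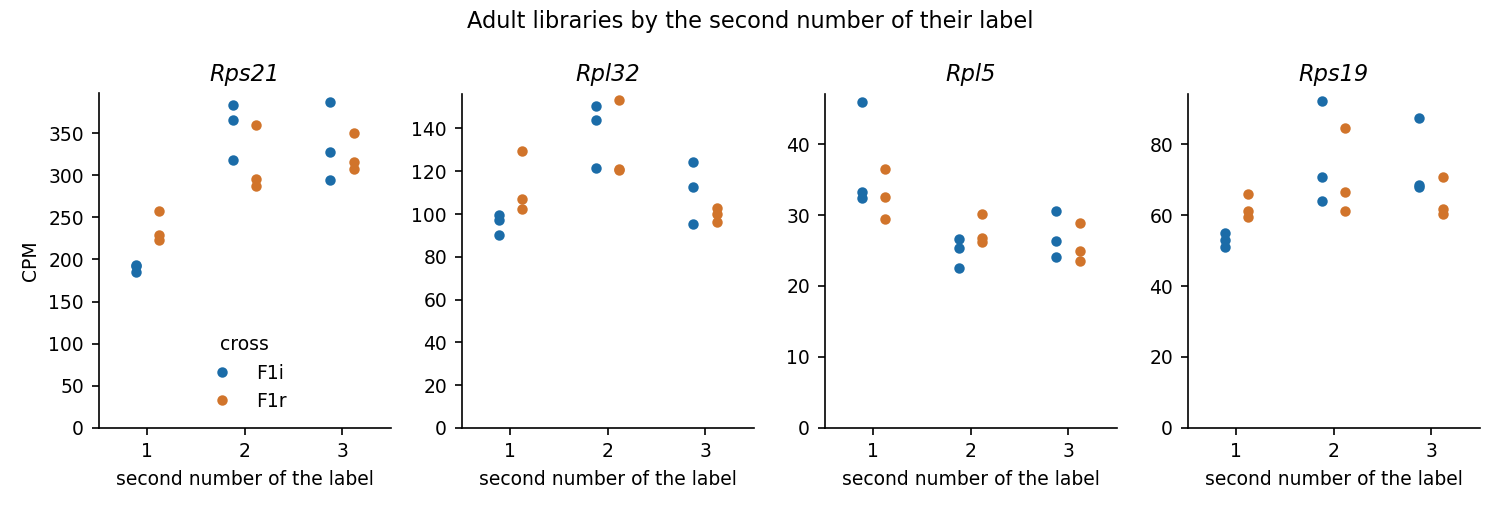
CPM (vertical axis) of 4 members in the 18 adult libraries, grouped by the second number of the label (horizontal axis), with the cross by colour. Rps21 is lowest in the 6 libraries of number 1, where Rpl5 reaches its highest value, and Rpl32 reaches its highest value with number 2.

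The other genes plotted followed the second number in other ways. Rpl5 had 29.4 to 45.97 CPM with number 1, against 22.5 to 30.1 and 23.5 to 30.6 with 2 and 3. Rps19 had 51.0 to 66.1 CPM with number 1, against 61.1 to 92.3 and 60.4 to 87.4, and with only the adults of number 1 its change from P15 was -0.40 on the log2 scale (adjusted p = 0.00231). The slope of log2 level on GC content (per 10 percentage points, each library against the mean of its age) reached -0.51 among those of number 1 and lay between -0.06 and 0.16 in the other 12. The 6 libraries of number 2 held 4912934 to 11081451 counts and the others 7838173 to 13085952. The part of GC slope or depth in these values was not tested.

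At P15 the same libraries stood high for several of the rising genes, chosen here after their values were seen. The 5 libraries with the most Rpl32 were also the 5 with the most Rps19, and 4 of them were among the top 5 for Rps21. The libraries lowest in Rpl32, F1i animal 4 and F1r animal 3, were also the lowest in Rps21. At P5 the 5 highest libraries for Rpl32 shared 1 with Rps21 and 0 with Rps19. In adults the 5 highest for Rpl32 shared 4 with Rps21 and 3 with Rps19, so the shared order was not particular to P15.

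Other genes of the translation system give a setting for these changes. Among all genes tested, 42.5% rose and 40.9% fell from P5 to P15, and 37% rose and 37.7% fell from P15 to adult. The lists were not tested against these shares. Of 70 tested genes for proteins of the mitochondrial ribosome, which translates the few messages of mitochondrial DNA, 62 rose and 2 fell from P5 to P15 (median 0.49 on the log2 scale), led by Mrps14 (1.21 ± 0.22), Mrps33 (1.15 ± 0.09) and Mrpl36 (1.06 ± 0.07). In the later step 2 of them rose and 46 fell (median -0.30), with Mrpl52 at -0.88 ± 0.13. Of 53 ribosome assembly genes 30 rose and 11 fell in the first step, and 13 rose and 26 fell in the second. Sbds, which helps release Eif6 from the new large subunit, rose by 1.35 ± 0.03 on the log2 scale, while Ubtf, a factor of ribosomal RNA transcription, fell by 0.93 ± 0.06.

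Of 41 initiation and elongation factors 15 rose and 17 fell from P5 to P15, and 18 rose and 15 fell from P15 to adult. These counts lie near the shares of all genes (42.5% higher and 40.9% lower, then 37% and 37.7%). Pabpc1, the main poly(A) binding protein, fell by 1.57 ± 0.07 on the log2 scale and then rose by 0.89 ± 0.07. From P15 to adult Eef1a2, the elongation factor form of mature neurons and muscle, rose by 1.51 ± 0.11, and Eef1a1, the common form, fell by 0.85 ± 0.16. Of 22 genes that control ribosomal protein synthesis 6 rose and 12 fell in the first step. Among these Myc and Mycn, which drive ribosome genes, fell by 2.51 ± 0.15 and 2.50 ± 0.16 on the log2 scale, and in the second step Mtor rose by 0.70 ± 0.07. Rack1, a small subunit protein outside the symbol rule, fell by 0.15 ± 0.06 and 0.24 ± 0.05.

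Cell type markers moved over the same ages. In summed CPM, 11 markers of myelin had medians of 2417, 24840 and 9307 at the 3 ages in order, and 10 markers of immature neurons 8752, 1746 and 1544. The tissue's own 11 serotonergic markers, such as Tph2, were counted at every age, with summed medians of 579, 1321 and 1480. Microglia had 416 at P15 against 229.5 and 314, and 9 endothelial and mural markers had 437, 416 and 175. The 8 astrocyte markers had 3950, 9131 and 10020, the 10 mature neuron markers 2912, 2933 and 4635, and the 7 cell cycle markers 79.7, 43.0 and 38.7. Their part in the changes of the ribosomal protein genes was not tested. In this bulk tissue fewer cells of a type and less RNA in each cell cannot be told apart.

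The 2 crosses gave no called difference in the total of any cytosolic member. By edgeR's quasi-likelihood test P5 had 0 calls among 41, P15 had 0 among 43 and adults had 0 among 44, where 1.17%, 0.0467% and 0.111% of all genes were called. At an unadjusted p under 0.05 the counts were 5, 0 and 1, and DESeq2 called 0 at each age. The F1i against F1r differences ran from -0.32 to 0.44 on the log2 scale at P5, from -0.35 to 0.29 at P15 and from -0.26 to 0.28 in adults. The smallest adjusted p was that of Rpl22 at P5, a difference of 0.12 ± 0.04 (adjusted p = 0.101). No age change differed between the crosses either, with 0 of 44 called in each of the 3 contrasts (0.0147%, 0.0367% and 0% of all genes) and 1, 0 and 1 at an unadjusted p under 0.05. When the adults of a cross were summed over the first number of their label, 1 cytosolic gene, Rpl28, was called.

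The parent that gave the allele made no called difference either. The parental effect, which tells an allele from the mother from one from the father, was called in 0 of 40, 0 of 42 and 0 of 44 cytosolic genes at P5, P15 and adult (2.71%, 0.742% and 2.71% of all genes). At an unadjusted p under 0.05 there were 1, 2 and 2, and DESeq2 called 0 at each age. The estimates ran from -0.14 to 0.57 on the log2 scale at P5, from -0.30 to 0.32 at P15 and from -0.22 to 0.17 in adults. The upper ends at P5 and P15 are those of Rps12 (standard errors 0.43 and 0.47), which had only 1 and 3 C57 counts at these ages.

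The strain of the allele, in contrast, went with large differences. The strain effect is the log2 ratio of the CAST to the C57 count within animals. At P5 19 of 40 cytosolic genes were called towards CAST and 10 towards C57 (58.4% of all genes called, 31.5% and 26.9% by direction). P15 gave 20 towards CAST and 11 towards C57 of 42 (58.4%, 31.1% and 27.3% of all genes). Adults gave 19 and 14 of 44 (67.8%, 35.9% and 31.9%). Effects of 1 or more on the log2 scale were called in 10, 11 and 11 cytosolic genes, which is 25%, 26.2% and 25% of those tested, against 6.16%, 6.12% and 7.08% of all genes. Called in 1 direction at all 3 ages were 15 towards CAST and 8 towards C57 among 39 genes, against 21.4% and 17.7% of all genes.

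Among small subunit genes, Rps12 was counted almost wholly from the CAST allele. Of its counts 1 of 10017 was from C57 at P5 (0.00998%, exact 95% binomial interval 0.000253% to 0.0556%), 3 of 7375 at P15 (0.0407%, 0.00839% to 0.119%) and 91 of 21384 in adults (0.426%, 0.343% to 0.522%). Such intervals cover counting error only. All 18 adult libraries had a C57 count, against 1 of 14 at P5 and 2 of 14 at P15. Every run of 50 coding bases of Rps12 also occurs in another gene, and Rps12-ps1 on the X chromosome is among them.

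Rps19, Rps15a and Rps15 leaned to C57. Rps19 had a CAST share of its counts of 3.68% ± 1.29 at P5 (SD, n = 14), 2.75% ± 0.98 at P15 (n = 14) and 2.09% ± 0.617 in adults (n = 18), and log2 ratios of -4.68, -5.21 and -5.57. Rps15a, a small subunit protein, had 10.9% ± 0.819, 12.1% ± 1.39 and 10.9% ± 0.80 at the 3 ages. Rps15 had 16.1% ± 1.60, 16.4% ± 2.64 and 16.1% ± 1.501. The highest single library of these 3 genes was 20.03% CAST, so none came near equal alleles. The paralog Rps27l leaned to CAST with log2 ratios of 1.60, 1.06 and 1.03.

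In the large subunit, Rpl23a had 98.9% ± 0.369, 98.5% ± 0.445 and 98.6% ± 0.262 of its counts from CAST, and the lowest library was at 97.8%. Rpl13 had 81.9% ± 2.60, 78.5% ± 5.96 and 91.9% ± 2.07, and Rpl28 had 74.9% ± 2.73, 87.5% ± 4.99 and 84.2% ± 2.55. Rpl13a, which leaves the ribosome to form a complex that silences inflammatory messages, had steady log2 ratios of 0.86, 0.83 and 0.82 towards CAST. Towards C57 lay Rpl10a (-0.97 ± 0.07, -1.30 ± 0.09 and -1.33 ± 0.08), Rpl23, which can bind Mdm2 (-0.92, -0.69 and -0.73), Rpl22 (-0.47, -0.32 and -0.21) and Rpl32 (-0.87, -0.21 and -0.08).

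**Figure D4:**
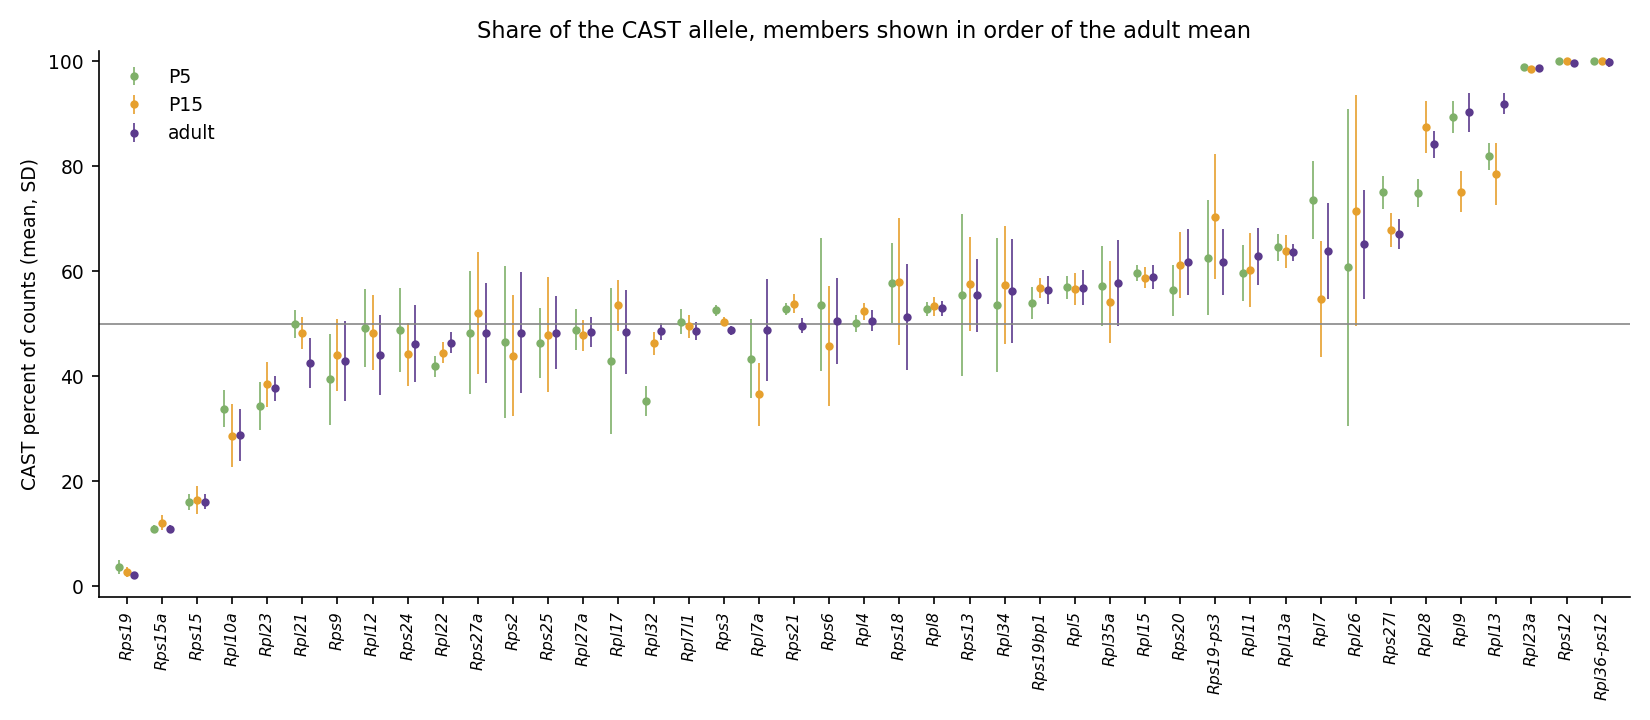
Share of counts from the CAST allele (vertical axis, percent, mean and SD over animals) for the members shown, in order of their adult mean, with the ages by colour and equal alleles as a line at 50. Rps19, Rps15a and Rps15 lie lowest, Rps12, Rpl23a and Rpl36-ps12 lie near 100, and Rpl9, Rpl13 and Rpl28 shift with age.

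Direction also differed with the share of sequence held in common. Of the cytosolic genes with 90% or more of runs shared, 10 of 19 were called towards CAST and 3 towards C57 at P5. For P15 the calls were 11 and 3 of 21, and for adults 11 and 4 of 21. Those with under 50% shared gave 5 towards CAST and 4 towards C57 of 11 at P5, then 5 and 4 of 12, and last 3 and 6 of 12. Of all genes, 31.5% were called towards CAST and 26.9% towards C57 at P5. The shares were 31.1% and 27.3% at P15, and 35.9% and 31.9% in adults. These sets of few genes were not tested against each other or against all genes. Genes with effects of 1 or more on the log2 scale came from both: Rpl13, Rpl23a, Rpl28, Rpl9, Rps12 and Rpl10a have 90% or more shared, while Rps15 and Rps27l have under 50%.

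The copies had their own ratios. Rpl36-ps12 had 0 C57 counts of 239 at P5, which allows a C57 share of up to 1.26% (3 counts over all libraries), 0 of 392 at P15 (up to 0.765%) and 1 of 635 in adults (0.157%, exact 95% binomial interval 0.00399% to 0.874%). The CAST count was thus at least 79.7-fold higher than the C57 count at P5 and at least 131-fold at P15. Rps19-ps3 had 62.6% ± 10.96 CAST at P5, 70.4% ± 11.8 at P15 and 61.8% ± 6.22 in adults, opposite in direction to Rps19. Its log2 ratios were 0.72 ± 0.17, 1.18 ± 0.17 and 0.69 ± 0.10. When the counts of Rps19 and Rps19-ps3 were summed, the CAST share was 6.92% ± 1.39, 6.83% ± 1.61 and 5.29% ± 0.583, and the copy held 5.35%, 5.93% and 5.35% of the counts.

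The strain effect itself changed with age in several members. From P5 to P15 it moved towards CAST in 5 and towards C57 in 6 of 39 cytosolic genes (19.7% of all genes called, 9.54% and 10.2% by direction). In the later step it moved towards CAST in 4 and towards C57 in 7 of 42 (16.1%, 7.75% and 8.32%). Changes of 1 or more on the log2 scale were called in 3 of 39 and 3 of 42 (7.69% and 7.14%), where 0.42% and 0.335% of all genes had one. They were 2 of 19 and 3 of 21 among genes with 90% or more of runs shared. Genes with under 50% shared gave 0 of 11 and 0 of 12, and those between gave 1 of 9 and 0 of 9. These sets of few genes were not tested against each other or against all genes.

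Rpl9 moved both ways. Its CAST share was 83.9% to 94.2% at P5 (median 88.8%), 69.4% to 82.0% at P15 (median 74.4%) and 80.2% to 95.2% in adults (median 90.9%). No P15 library reached the P5 range, and only its upper edge met the adults. The changes of the log2 ratio were -1.51 ± 0.19 (adjusted p = 3.48e-09) and 1.69 ± 0.17 (adjusted p = 1.82e-12). In CPM the CAST allele went from a mean of 17.6 to 10.1 and then 20.6, and the C57 allele from 2.04 to 3.38 and then 2.12. The dip of the total at P15 thus lay in the counts given to the CAST allele. Every run of 50 coding bases of Rpl9 also occurs in another gene, so these counts may hold reads of its copies.

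Rpl13 changed in the second step. Its CAST share was 66.7% to 86.2% at P15 (median 79.6%) and 88.8% to 95.2% in adults (median 92.0%), with no overlap. The change of the log2 ratio was 1.69 ± 0.14 (adjusted p = 5.5e-15). The CAST allele rose from a mean of 10.8 to 28.0 CPM while the C57 allele went from 2.97 to 2.42. Rpl28, a large subunit protein, moved towards CAST by 1.29 ± 0.13 from P5 to P15 (adjusted p = 1.35e-12) as its C57 allele went from a mean of 8.52 to 4.16 CPM and its CAST allele from 25.4 to 29.7. Its later change of -0.43 ± 0.13 lost the call with adults of second number 1 or 3 alone. In Rpl13 and Rpl28 too, every run of 50 coding bases also occurs in another gene.

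In Rpl32 the alleles drew together as the gene rose. Its CAST share was 31.7% to 42.3% at P5 (median 35.0%), 42.4% to 50.4% at P15 (median 46.1%) and 45.4% to 51.6% in adults (median 48.5%). P5 and P15 did not overlap. The CAST allele rose from a mean of 18.7 to 75.1 CPM and the C57 allele from 34.3 to 86.4, a change of the log2 ratio of 0.66 ± 0.05 (adjusted p = 3e-16). Rpl7, at few counts, moved towards C57 by 1.07 ± 0.23 on the log2 scale (adjusted p = 0.00031), from a median of 73.7% to 54.5% CAST. The paralog Rps27l moved towards C57 by 0.54 ± 0.09 (adjusted p = 7.61e-07) as its C57 allele rose from a mean of 7.14 to 15.5 CPM and its CAST allele from 21.5 to 32.6. The fitted change of Rps12 from P15 to adult, -2.96 ± 0.52, rests on the 3 and 91 C57 counts given above and was -1.04 with limma on the log2 ratio.

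**Figure D5:**
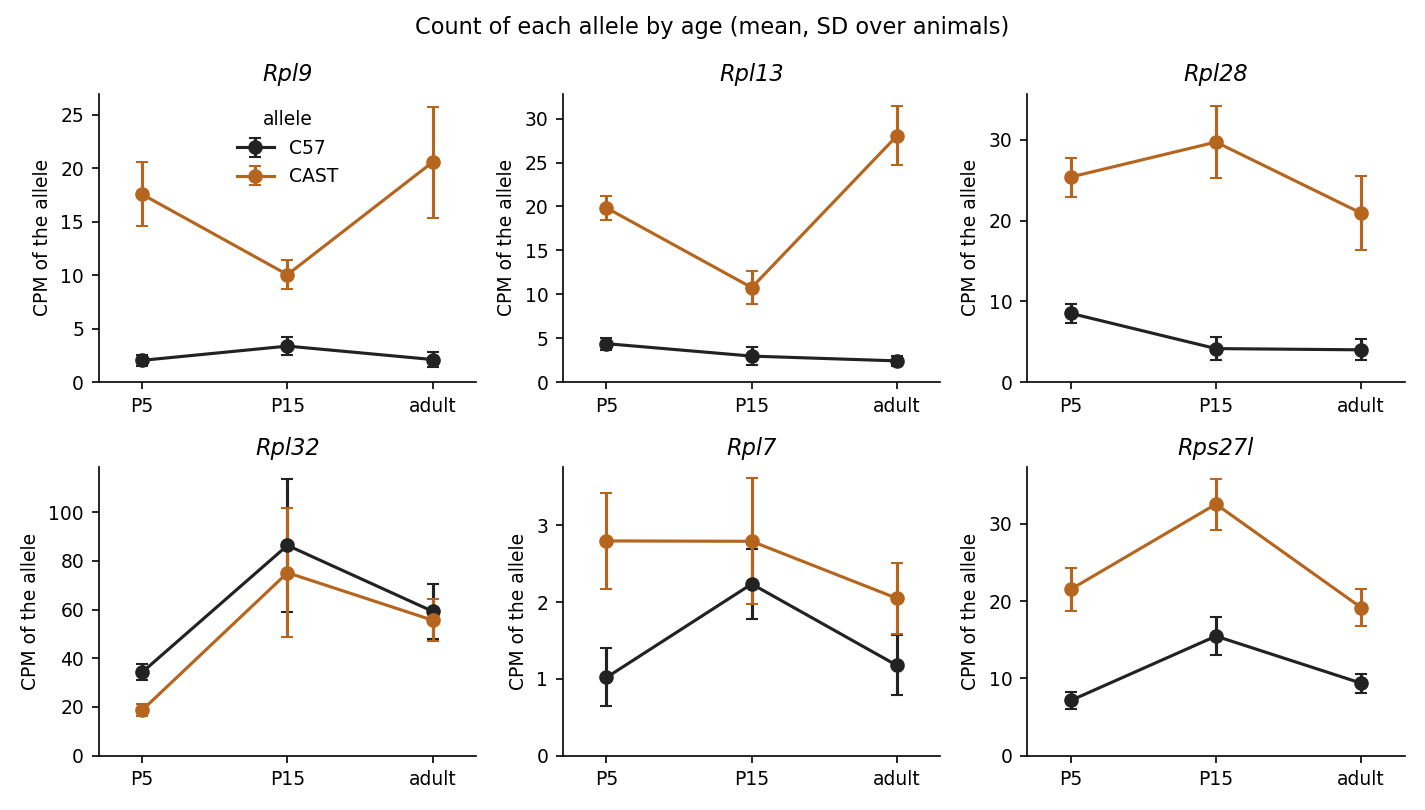
CPM of the C57 and the CAST allele (vertical axis, mean and SD over animals) at P5, P15 and adult for 6 members whose allele ratio changed with age. The CAST allele of Rpl9 dips at P15, that of Rpl13 rises in adults, and in Rpl32 the alleles come close at P15 and in adults.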

How the data were processed

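The authors deposited whole-number read counts per gene and allele in 3 tables, 1 for each age. RNA was made with a column kit and libraries with the TruSeq kit for 50-base single-end reads, per the labels' protocols. Novoalign and the mm9 build are named in the submitters' processing notes. Allele assignment, multi-mapping reads and strand are not given in the sources used here. All 92 columns were matched to 46 animals by name, and library totals were 3692778 to 13085952 counts. No pair of libraries of a group agreed within sampling noise (lowest chi-square per degree of freedom 1.25).

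Members and lists were chosen with earlier results of these data known. Fits ran on all genes in edgeR 4.0.16 (R 4.3.3). Totals used TMM scaling and filterByExpr. Allele fits had 1 column per allele, a term per animal and no further scaling, for genes averaging 20 summed counts or more. Age contrasts weigh both crosses equally. Standard errors were derived from the log2 change and the quasi-likelihood F. Alternatives were DESeq2 1.42.0, limma 3.58.1, other scalings and filters, a GC and length offset, each cross alone, summed adults and a replicate block. The fits with adults of 1 second number were added after seeing the data. The scripts were tested on simulated data.

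Same-numbered libraries of the crosses did not pair at P5 (correlation of deviations -0.03 to 0.03). At P15 the values were mixed (-0.21 to 0.47), with 0.469 for number 1, 0.363 for number 6 and negative values for the rest. By their second number adults did pair (0.287, 0.122 and 0.135), where the pairing is seen only in the data. Genes named are the 6 called members with the largest change in each direction for each age step, the 8 with the largest mean strain effect in each direction among those called at all ages, the 5 largest changes of that effect, all pseudogenes and paralogs, and the 3 largest of each list. Others named, such as the libraries and genes set beside Rpl32, were chosen after their values were seen. Some members that the rule would name are not reported here and are left out of the plots.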

Additional observations from a re-analysis of the deposited data

Results flagged for a closer look

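Single libraries stood apart from the rest of their group by Dixon's test in 14 of 216 groups of values, where chance gives about 1 in 20. By CAST share these were Rpl5 (49.4%, others 55.5% to 61.4%) and Rpl9 (80.2%, others 87.4% to 94.4%) in adult F1i 2_1. Rpl23a had 99.26% in P5 F1i animal 2 and 97.95% in P5 F1r animal 2, with others at 98.7% to 98.9% and 98.9% to 99.5%. Single C57 counts gave Rps12 shares of 99.83%, 99.72% and 99.89% in P15 F1i animal 1, P15 F1r animal 7 and P5 F1r animal 7, and Rpl36-ps12 a share of 96.2% in adult F1i 3_2, where the others had 100%.

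By CPM, Rpl5 stood at 45.97 in adult F1i 1_1 (others 22.5 to 33.3), Rps19 at 84.6 in adult F1r 6_2 (others 59.4 to 70.8) and Rps27l at 35.0 in adult F1r 7_2 (others 25.7 to 30.3). Rps15a stood at 120.4 in P15 F1r animal 1 (others 142 to 156). P5 F1i animal 5 had 132.5 of Rps12 (others 108 to 117) and 4.53 of Rpl36-ps12 (others 1.54 to 2.68).

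The log2 strain effect differed between ages in these members. From P5 to P15 the difference was -1.51 in Rpl9, -1.07 in Rpl7, -0.54 in Rps27l, -0.54 in Rps19, -0.33 in Rpl10a and -0.12 in Rps3, and 0.13 in Rpl4, 0.15 in Rpl22, 0.17 in Rps15a, 0.66 in Rpl32 and 1.29 in Rpl28. From P15 to adult it was -2.96 in Rps12, -0.43 in Rpl28, -0.35 in Rpl21, -0.23 in Rps21, -0.18 in Rps15a, -0.11 in Rpl4 and -0.10 in Rps3, and 0.12 in Rpl32, 0.60 in Rpl7a, 1.69 in Rpl13 and 1.69 in Rpl9. Adjusted p ran from 3e-16 to 0.035 in the first step and from 5.5e-15 to 0.0166 in the second. In the first step the call was lost in Rps19 with limma (-0.41, adjusted p = 0.0522) and, with a TMM factor for each allele's own column, in Rpl4 (0.11, adjusted p = 0.0538) and Rps15a (0.14, adjusted p = 0.0801). In the second, at least those of Rpl21, Rpl28, Rpl32, Rpl7a and Rps15a were lost with the adults of at least 1 second number alone. Of the 11 calls of cytosolic genes in that step, 8, 6 and 8 were kept with the adults of second number 1, 2 and 3 alone. With a TMM factor for each allele's own column 10 were kept. Rpl4 and Rps3 were not followed by name in these fits, so their calls may be among those lost.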

How the results depend on the processing

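Across 122 values of named members and 760 alternatives, 721 kept direction and side of the threshold, 28 lost the call, 8 gained it and 0 turned direction. The other 3 are the CAST shares with Rps19 and its copy summed. No call of a cytosolic gene turned direction under any alternative run. Among genes averaging 100 summed counts or more, which leaves 23, 25, 21 and 23 genes, the strain effect was called in 19 at P15 (12 towards CAST, 7 towards C57). It was called towards CAST in 12 of the adults' genes, where 22 of 33 calls were kept and 11 were not tested. Its change was called towards C57 in 3 from P5 to P15 and towards CAST in 1 from P15 to adult. Counting both directions, 8 of the 11 calls of a change were kept in each step, and 3 were not tested. Those not tested include Rpl9 (74.93 counts at P15) in both steps and Rpl13 (75.93) in the second. With a TMM factor for each allele's own column 3 changed towards CAST from P5 to P15, and 9 of the 11 calls of that step were kept. With the adults of second number 2 alone 6 changed from P15 to adult (2 towards CAST, 4 towards C57). With adults summed over the first number 1 cross difference was called. The causes were not tested beyond the fewer genes or libraries used.

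With the replicate block, 34 cytosolic genes were called from P5 to P15 (24 up, 10 down), and 0 differed between crosses at any age. The block changed no call of a named member. Few counts limit Rpl26, Rpl17, Rpl7, Rps27a and both pseudogenes, and the C57 allele of Rps12. Counts of genes with shared sequence may hold reads of their copies.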
